A study of Mus musculus with 6 samples.

Results

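The glycolysis and hypoxia response genes are a set of 36 genes, picked by name for their function, that encode glycolytic enzymes, carriers of glucose and lactate, and the oxygen-sensing pathway with its classical target genes. All 36 were among the 19270 genes in the expression table of mesenchymal tissue dissected from the proximal mouse incisor. Glycolysis splits glucose into pyruvate and yields ATP without oxygen, and lactate dehydrogenase turns pyruvate into lactate when glycolysis runs ahead of the mitochondria. The pathway answers to oxygen through the hypoxia-inducible factors (HIF). Prolyl hydroxylases use oxygen to mark the HIF alpha subunits, VHL directs the marked subunits to degradation, and in low oxygen the surviving subunits pair with ARNT and switch on genes of glycolysis, lactate export and pH control. Many stem cell populations, including mesenchymal ones, are known to lean on glycolysis, which makes the pathway of interest in the proximal incisor, where mesenchymal stem cells sustain the lifelong growth of the tooth.

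Bulk RNA sequencing compared 3 control with 3 *Gli1-CreER;Arid1bfl/fl* mutant libraries, collected 4 days after tamoxifen at an age of 1 month, to find what the loss of ARID1B, a subunit of the BAF chromatin remodelling complex, does to transcription. Tamoxifen was given to both groups. The labels call the control genotype wild type, whereas the study's methods describe the controls as *Arid1bfl/fl* mice that received tamoxifen. In the mutants the Cre recombinase is driven by *Gli1*, so the floxed alleles are lost in *Gli1*-expressing cells and their progeny, which lie in the dental mesenchyme and epithelium, while other cells keep the gene. The labels do not say whether each library came from 1 animal.

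The values are the authors' group means of a normalized signal, 1 per gene and group. Values of single libraries were not analysed here, so the means carry no SD, no test across mice was made, and every ratio below is a description without a p-value. *Arid1b* itself had a mean of 97.6 in controls and 38.0 in mutants, a ratio of 0.390. From the lowest value of each library the depth was inferred at 39087724 to 39868312 reads in controls and 37123643 to 49594469 in mutants, and the upper quartile of the signal lay between 44.57 and 44.58 in every library. The defining transcripts of the tissue were abundant, as *Col1a1* stood at 21211 and 17127 and *Dspp*, which encodes the main non-collagen protein of dentin, at 5179 and 4136 in controls and mutants. In such bulk tissue fewer cells of a type and less RNA per cell cannot be told apart. *Xist* had a mean of 3368 in controls and 814 in mutants, and the Y-linked *Ddx3y* lay at the lowest mean of the controls and at 65.3 in mutants, so the sex of the animals and the genotype cannot be told apart.

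The glycolysis and hypoxia genes differed little between control and *Arid1b* mutant incisors. Their median log2 ratio of mutant over control was -0.03, beside 0.002 for all listed genes, and 22 of the 36 (61.1%) lay within 10% of equality, beside 51.4% of all listed genes. The clearest difference among abundant members was a lower level of *Ldhb*, one of the 2 lactate dehydrogenase subunits, at 0.674 of the control mean. *Hk2*, the inducible hexokinase, stood at 1.27 times its control mean. Of the HIF alpha subunits, *Hif1a* stood at 1.14 and *Epas1* at 0.872 of the control mean, both within 20% of equality. So were 89.1% of all genes with a mean of at least 10. *Hif3a*, at a mean under 10, stood at 0.645 of its control mean.

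A ratio of group means over 1.5-fold in either direction was found for 2 of the 36 members, *Car9* (higher in mutants) and *Hif3a* (lower in mutants). This limit is the fold part of the study's criterion, and its FDR part was not applied, so passing it is no call of a changed gene. Of all listed genes 13.2% passed it, 7.37% with a higher and 5.8% with a lower mutant mean, so the members' count was below that background. Both genes had means under 10, where ratios of listed genes scatter most. Among the 28 members with a mean of at least 10, none passed, beside 3.06% of the 10311 listed genes at that level. Of the 12 members with a mean of at least 100, 0 passed, beside 1.94% of 2057 genes. At a looser limit, 25% higher or lower by the same factor, 6 members passed, 3 in each direction, beside 26.5% of all listed genes. At 2-fold 1 member passed, beside 5.17%. Just short of the 1.5-fold threshold lay *Ldhb* at 1.48-fold lower and *Slc16a3* at 1.45-fold lower, and just past it *Hif3a* at 1.55-fold lower.

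**Figure D1:**
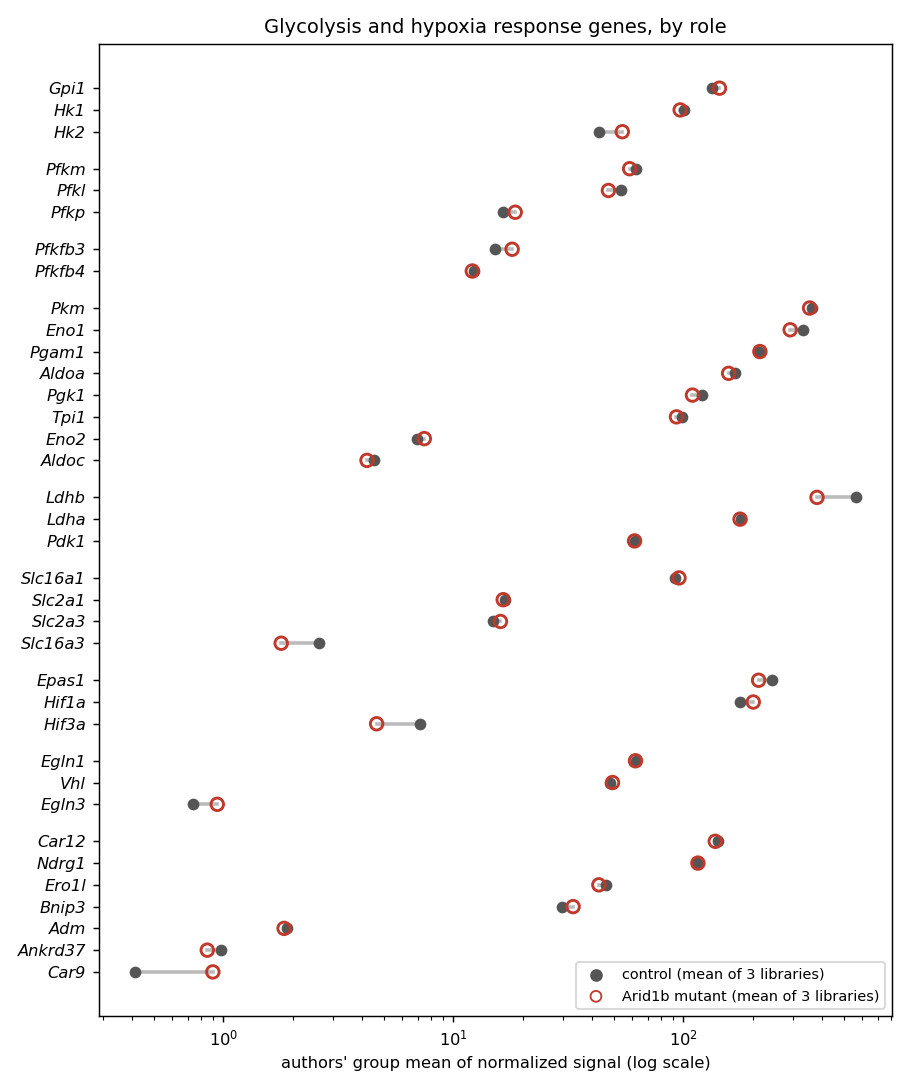
Authors' group means of the normalized signal (x axis, log scale) for the 36 genes, grouped by role, with controls as filled grey points and mutants as open red circles, each the mean of 3 libraries without an error. Most pairs of points overlap, and the widest gaps are those of *Car9*, *Hif3a*, *Slc16a3* and *Ldhb*.

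With the signal scaled to the library total, every log2 ratio shifts by 0.06, which turns 15 members higher and 21 lower in mutants into 23 higher and 13 lower. All listed genes turn likewise from 9731 higher and 9539 lower into 12267 higher and 7003 lower. Directions of small ratios therefore rest on the scaling, and only larger ones are described by direction below. The spread of the members was like that of other genes at their level. Of the members with a mean of at least 10, 67.9% were within 10% of equality, beside 70.9% of all such genes, and 92.9% were within 20%, beside 89.1%.

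**Figure D2:**
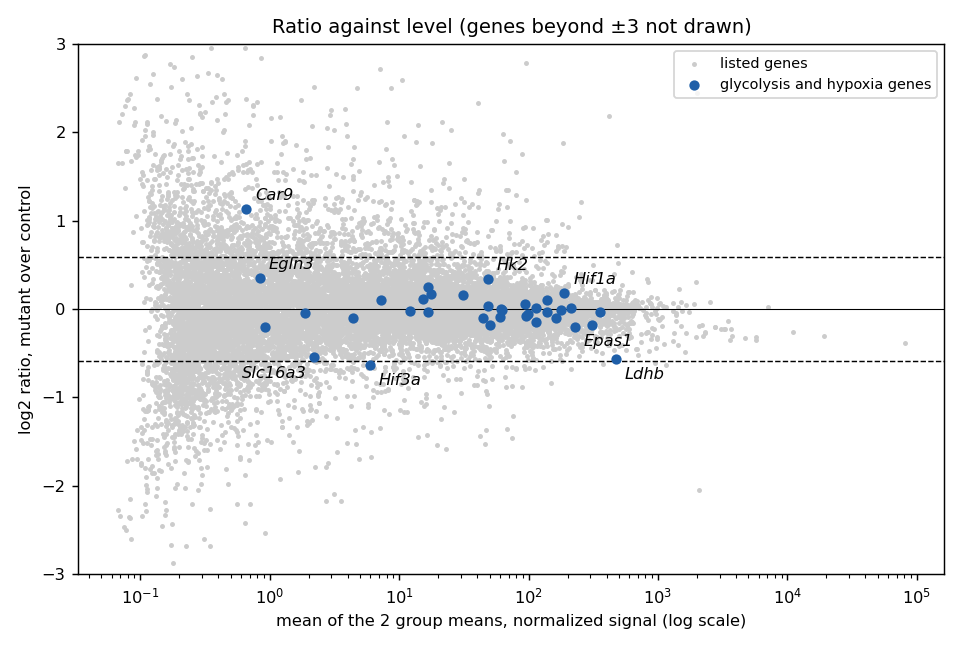
Log2 ratio of mutant over control (y axis) against the mean of the 2 group means (x axis, log scale) for all listed genes in grey, of which 54 lie beyond the axis limit of 3, and the glycolysis and hypoxia genes in blue. Dashed lines mark the 1.5-fold threshold, which among the blue points only *Car9* and *Hif3a* cross, while *Ldhb*, one of the most abundant genes, falls just short of it.

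Glucose enters glycolysis through hexokinase, which phosphorylates it and so traps it in the cell. *Hk1*, the broadly expressed form, had a mean of 100.7 in controls and 96.8 in mutants. *Hk2*, the form that growth signals and hypoxia induce, had a mean of 42.8 in controls and 54.3 in mutants, a log2 ratio of 0.34. This was the highest ratio among the members with a mean of at least 10, and 486 of the 10311 listed genes at that level had a higher one. Counted per kilobase of exon, *Hk2* made up 37.8% of the hexokinase signal of the pair in controls and 44.5% in mutants. The level of this share rests on the length used, as it was 24.8% and 30.3% with the longest transcript and 15.2% and 19.2% with the mean length of coding transcripts, higher in mutants each time. *Gpi1*, which encodes the isomerase of the next step, stood at 133.4 and 143.5.

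Phosphofructokinase commits sugar to glycolysis and has 3 subunits, named for liver, muscle and platelets. *Pfkl* had a mean of 53.6 in controls and 47.2 in mutants. *Pfkm* stood at 62.1 and 58.4, and *Pfkp* at 16.4 and 18.6. Their ratios spanned 0.881 to 1.13, all within 20% of equality. Per kilobase of merged exons, *Pfkm* held 66.7% of the phosphofructokinase signal in controls and 67.4% in mutants. *Pfkl* held 28.9% and 27.3%, and *Pfkp* 4.41% and 5.34%. These shares rest on the length used. With the longest transcript *Pfkm* held 57.0% and 57.8%, and *Pfkl* 38.0% and 36.1%. With the mean coding transcript length *Pfkm* held 49.1% in both groups, *Pfkl* 38.2% and 35.8%, and *Pfkp* 12.6% and 15.2%. The enzymes that make the activator fructose 2,6-bisphosphate come from the *Pfkfb* genes. *Pfkfb3*, whose product favours synthesis of this activator, had a mean of 15.17 in controls and 18.003 in mutants, a ratio of 1.19, and *Pfkfb4* had 12.3 and 12.1.

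The 8 genes from aldolase to pyruvate kinase lay close to their control means, with log2 ratios from -0.18 to 0.10. *Aldoa*, the main aldolase, stood at 168.1 in controls and 157.3 in mutants, and *Aldoc*, the brain form, at 4.52 and 4.21. *Aldoa* held 97.7% of the aldolase signal per kilobase in both groups. Triosephosphate isomerase (*Tpi1*) had means of 98.7 and 93.3. Phosphoglycerate kinase (*Pgk1*), the first ATP-forming enzyme of the pathway, had means of 120.8 and 109.5, and its gene lies on the X chromosome, for which the *Xist* values above apply. Phosphoglycerate mutase (*Pgam1*) was at 212.5 and 215.0. The largest gap of these steps was that of *Eno1*, the widely expressed enolase, at 329.5 in controls and 291.2 in mutants, a ratio of 0.884 that stays below 1 after scaling to the library total. The neuronal enolase *Eno2* was at 6.96 and 7.47, so *Eno1* held 97.6% and 97.1% of the enolase signal per kilobase. *Pkm*, pyruvate kinase, was at 362.6 and 353.6. Per kilobase of merged exons these genes in controls stood between *Pgam1* at 107 and *Aldoc* at 1.39. The order at the top turned with the length, since the longest transcripts put *Eno1* (163) and *Pkm* (149) above *Pgam1* (120), and the mean coding transcript lengths put *Pkm* (353) above *Eno1* (296) and *Pgam1* (120). *Eno2* and *Aldoc* were the lowest of the 8 with each length.

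Lactate dehydrogenase is a tetramer of A and B subunits. The A subunit favours the making of lactate from pyruvate, and the B subunit, typical of heart, favours the reverse. *Ldhb* lies on chromosome 6 from 142490249 to 142507957 (GRCm38, the assembly also called mm10). Its mean was 564.8 in controls and 380.9 in mutants, a log2 ratio of -0.57. *Ldha*, on chromosome 7 from 46841475 to 46855627, had 177.3 and 176.3, a ratio of 0.995. The signal of *Ldhb* was thus 3.19 times that of *Ldha* in controls and 2.16 times in mutants, without regard to length. Per kilobase, *Ldhb* held 87.0% of the lactate dehydrogenase signal in controls and 82.0% in mutants, or 78.7% and 71.4% with the mean coding transcript length. It ranked first of the 36 genes in both groups with each of the 3 lengths, at 359.8 and 243 per kilobase of merged exons.

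The lower *Ldhb* mean stood out against other abundant genes. Among 2057 genes at or above a mean of 100, 12 had a lower ratio, and among 10311 at or above a mean of 10, 101 did. After scaling to the library total its ratio was 0.703. Its processed copy *Ldhb-ps*, which may share reads with it, was at 7.86 in controls and 5.41 in mutants, a ratio of 0.689. *Pdk1*, whose kinase shuts off pyruvate dehydrogenase and is a classical HIF target, had the same mean of 61.3 in both groups.

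**Figure D3:**
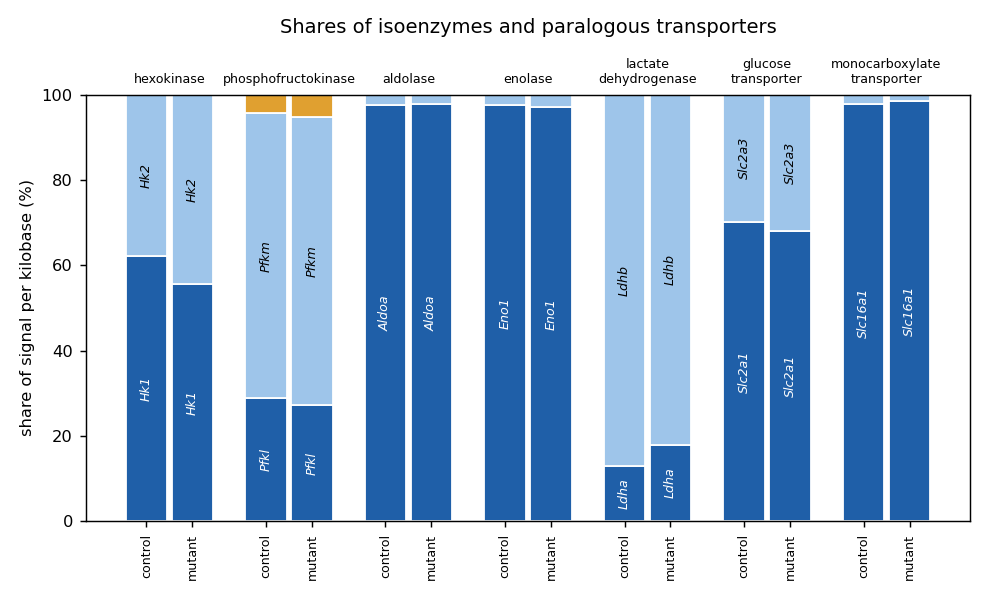
Share of each isoenzyme or paralogous transporter in the signal per kilobase of its step (y axis, in %), as stacked bars for the control and the mutant mean at 7 steps, without errors. The thin unlabelled top segments are *Pfkp*, *Aldoc*, *Eno2* and *Slc16a3*, and the widest shifts between the groups are those of *Hk2* (37.8% to 44.5%) and *Ldhb* (87.0% to 82.0%).

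The carriers at both ends of the pathway gave small differences, apart from one scarce transcript. *Slc2a1*, the common glucose transporter GLUT1, had 16.8 in controls and 16.5 in mutants. *Slc2a3*, the high-affinity GLUT3 typical of neurons, had 14.8 and 16.0, and *Slc2a1* held 70.1% and 68.0% of the signal per kilobase of the pair, or 54.9% and 52.5% with the mean coding transcript length. *Slc16a1*, the monocarboxylate carrier MCT1 that moves lactate either way, had 92.3 and 95.7. *Slc16a3*, the MCT4 carrier of lactate-exporting cells and a HIF target, had 2.59 and 1.78, a log2 ratio of -0.54. *Slc16a1* held 97.7% of the signal per kilobase of these carriers in controls and 98.5% in mutants, or 93.8% and 95.8% with the mean coding transcript length.

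The HIF alpha subunits differed in direction. *Hif1a*, the subunit found in nearly all cells, had a mean of 177.0 in controls and 201.2 in mutants, a ratio of 1.14. *Epas1*, which encodes HIF-2 alpha and is prominent in endothelium, had 243.4 and 212.3, a ratio of 0.872. At the same levels, 1021 of 10311 and 275 of 2057 genes had a lower ratio. The signal of *Hif1a* was therefore 0.727 of that of *Epas1* in controls and 0.948 in mutants, and neither direction turned with scaling to the library total. The endothelial markers were summed at 335 in controls and 338 in mutants, with 0 of 6 past 1.5-fold. Of all listed genes 13.2% were past it, and 3.06% of those with a mean of at least 10, the level of these markers. Dental mesenchyme markers were summed at 29108 and 23435, and odontoblast markers at 6039 and 4830. The part of these cell types in the *Epas1* values was not tested. *Hif3a*, whose product can dampen the other HIF proteins, had 7.19 and 4.64, a log2 ratio of -0.63. After scaling to the library total *Hif3a* no longer passed the 1.5-fold threshold.

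The main oxygen-sensing genes stood at like levels in both groups. *Egln1*, the main prolyl hydroxylase PHD2, had 62.4 in controls and 61.9 in mutants. *Vhl*, the substrate receptor of the ubiquitin ligase, had 48.1 and 49.2. *Egln3*, a prolyl hydroxylase that is itself induced by HIF, had 0.736 and 0.941, about 27.5 and 39.8 reads per library as inferred from the lowest values.

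Among the other hypoxia response genes, *Car9* had the highest ratio of the whole set and the lowest control mean. *Car9* encodes carbonic anhydrase 9, a cell surface enzyme that helps export acid and is among the transcripts most tightly tied to HIF-1. Its mean was 0.412 in controls and 0.900 in mutants, a ratio of 2.19 that rests on about 14.9 and 38.0 reads per library. The related *Car12* was far more abundant, at 140.8 and 137.5. *Bnip3*, a mitochondrial protein of mitophagy, had 29.6 and 33.1, a ratio of 1.12. *Ndrg1*, a stress-induced cytoplasmic protein, had 114.4 and 115.6, and *Ero1l*, an oxidase for disulfide formation in the endoplasmic reticulum, had 46.1 and 42.9. The peptide hormone gene *Adm* (1.90 and 1.84) and *Ankrd37* (0.976 and 0.851) were scarce in both groups. Of these 7 genes, 1 passed 1.5-fold, beside 13.2% of all listed genes.

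Promoter sequence of the members was set beside these values, as HIF binds a short core, ACGTG or GCGTG, which reads CACGT or CACGC on the other strand. The sequences are from RefSeq (GRCm38.p6) and run from 250 bases before to 50 bases after a transcription start. Of the 32 members with such a sequence, 84.4% held the core in at least 1 listed window, beside 64.1% of the 12719 listed genes with a sequence, and in the first window alone the shares were 75% and 60.1%. Each core holds a CpG, and the median number of CpG in the first window was 20.5 in the members and 19 in the listed genes. *Car12*, *Eno2*, *Gpi1*, *Tpi1* and *Vhl* had no core in these windows, and *Epas1*, *Ndrg1*, *Slc2a3* and *Ero1l* were without an entry. A match is a run of letters, and no binding was measured here. The lactate dehydrogenase pair and the genes past 1.5-fold are shown because the results turn on them, in lower case with the core in capitals. Overlapping matches were counted once. The first *Ldha* window (chr7:46845554-46845853, plus strand), shown here, held the core at 5 places. Another *Ldha* window (chr7:46846832-46847131, plus strand), not shown, held it at 2 places. The *Ldhb* window (chr6:142507908-142508207, minus strand) held it at 1 place. The *Hif3a* window (chr7:17062378-17062677, minus strand) held it at 2 places and the *Car9* window (chr4:43506776-43507075, plus strand) at 1 place.
Ldha: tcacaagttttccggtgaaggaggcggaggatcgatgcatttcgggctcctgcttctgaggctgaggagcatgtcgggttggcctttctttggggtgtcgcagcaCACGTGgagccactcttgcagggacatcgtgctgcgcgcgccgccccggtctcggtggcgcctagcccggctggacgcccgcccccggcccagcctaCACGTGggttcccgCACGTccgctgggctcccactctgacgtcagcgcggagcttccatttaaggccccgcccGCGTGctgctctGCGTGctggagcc
Ldhb: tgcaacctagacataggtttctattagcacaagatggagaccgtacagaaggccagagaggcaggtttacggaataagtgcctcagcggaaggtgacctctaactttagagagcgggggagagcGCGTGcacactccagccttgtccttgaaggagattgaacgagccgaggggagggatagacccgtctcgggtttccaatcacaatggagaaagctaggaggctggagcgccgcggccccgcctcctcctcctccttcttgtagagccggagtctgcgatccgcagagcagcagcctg
Hif3a: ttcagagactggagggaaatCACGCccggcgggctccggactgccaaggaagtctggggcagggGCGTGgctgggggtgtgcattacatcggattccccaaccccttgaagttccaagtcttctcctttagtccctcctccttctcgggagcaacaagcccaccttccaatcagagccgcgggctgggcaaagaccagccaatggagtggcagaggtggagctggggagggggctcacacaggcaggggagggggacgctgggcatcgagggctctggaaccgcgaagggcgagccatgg
Car9: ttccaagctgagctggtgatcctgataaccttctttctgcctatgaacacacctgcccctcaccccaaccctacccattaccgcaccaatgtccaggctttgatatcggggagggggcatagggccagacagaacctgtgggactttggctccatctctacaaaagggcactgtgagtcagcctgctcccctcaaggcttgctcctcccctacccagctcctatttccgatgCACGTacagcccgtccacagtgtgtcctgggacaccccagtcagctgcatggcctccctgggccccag

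Genes of the same and adjoining pathways outside the set also differed little. Of 11 further glycolysis enzymes in the table, 1 passed 1.5-fold, at a mean under 10. In mutants 3 were higher and 8 lower, or 8 and 3 after scaling to the library total. All listed genes split into 9731 higher and 9539 lower, or 12267 and 7003 after that scaling. Of them 13.2% passed 1.5-fold, and 3.06% of those with a mean of at least 10. *Gapdh* had 160.7 and 154.3, *Adpgk*, an ADP-dependent glucokinase, 51.4 and 46.7, and *Bpgm*, which makes 2,3-bisphosphoglycerate, 40.6 and 43.5. In the oxidation of pyruvate 0 of 13 genes passed, with the widest gap in *Pdk4*, another pyruvate dehydrogenase kinase, at 134.0 and 106.9. The pentose phosphate pathway, which draws on the same sugar to make NADPH and ribose, had 0 of 7 past the threshold, with *Pgls* at 24.1 and 19.8. Of 8 further carriers and their partners 1 passed, the glucose transporter *Slc2a12*, at 15.8 and 10.3. Among 11 glycogen genes 1 passed, at a mean under 10, and *Ppp1r3c*, which targets a phosphatase to glycogen, had 171.8 and 129.5.

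The partners and regulators of HIF were close to their control means, with 0 of 13 past 1.5-fold. *Arnt2*, an alternative partner of the alpha subunits, had 23.6 and 18.9, and *Cited2*, which competes with HIF-1 for its coactivator, had 34.7 and 39.9. *Egln2*, the remaining prolyl hydroxylase of the family, had 30.1 and 26.6. Of 28 further hypoxia-induced genes 0 passed, and 23 of them had a mean of at least 10 in 1 group. Of all listed genes 13.2% passed, and 3.06% of those with a mean of at least 10. In mutants 10 of the 28 were higher and 18 lower, or 13 and 15 after scaling to the library total. The widest gaps among them went both ways. *Bhlhe40*, a transcriptional repressor, had 12.9 and 17.7, *Plod2*, a lysyl hydroxylase for collagen, 394.3 and 518.2, and *Cox4i2*, a cytochrome oxidase subunit, 52.8 and 38.5. The medians of all 7 lists lay between -0.10 and -0.04 on the log2 scale. The median was 0.002 for all listed genes and -0.02 for those with a mean of at least 100. After scaling to the library total the lists lay between -0.04 and 0.02, beside 0.06 and 0.05.

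**Figure D4:**
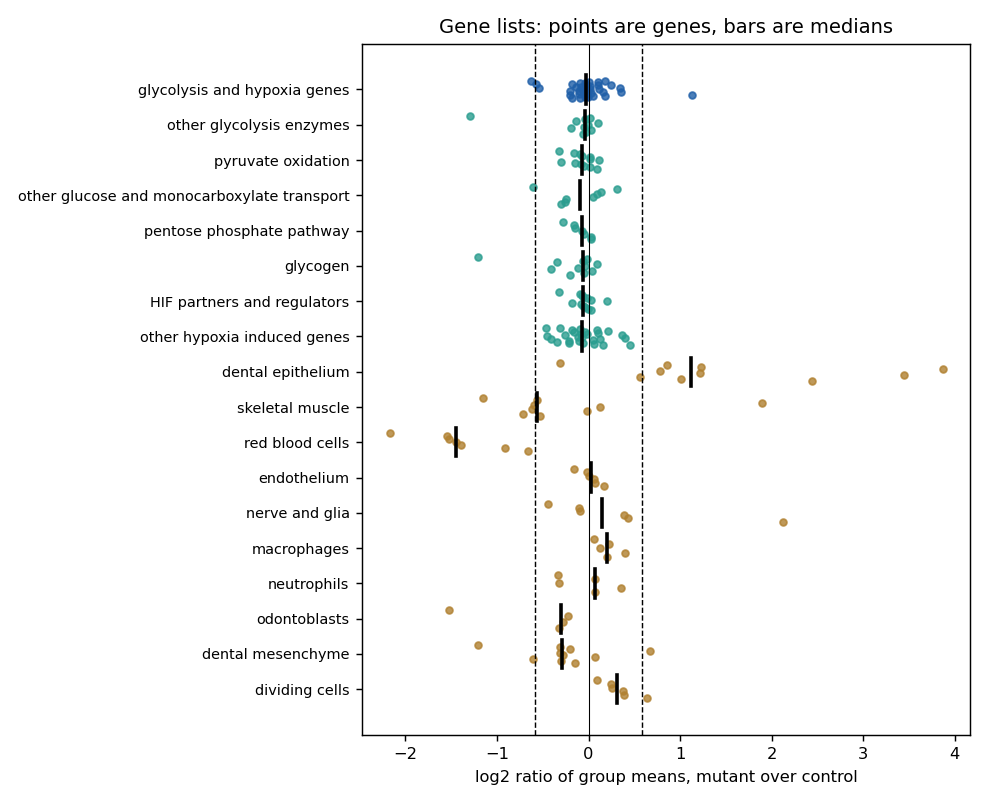
Log2 ratio of mutant over control (x axis) for each gene of the glycolysis and hypoxia set (blue), of 7 lists of related pathways (green) and of 10 lists of cell type markers (brown), with black bars as list medians and dashed lines at 1.5-fold. The pathway lists cluster near 0, whereas most dental epithelium markers lie to the right and all 7 red blood cell markers to the left.

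Markers of dental epithelium and of red blood cells differed widely between the groups. Of all listed genes 50.5% were higher in mutants, with 7.37% over 1.5-fold higher and 5.8% over 1.5-fold lower. Of 10 dental epithelium markers 8 were over 1.5-fold higher in mutants and 1 was lower, short of that limit, with sums of 1544 and 10191. The sums rest mostly on the enamel matrix genes *Enam* (135.8 and 1983), *Amelx* (361.9 and 3946) and *Ambn* (617.4 and 3360). The other markers past the limit, among them keratins, had ratios from 1.72 to 2.35. The study's methods describe the dissected tissue as mesenchymal, and the part of the dissection in these values was not tested. Of 7 red blood cell markers 7 were over 1.5-fold lower, with sums of 64.7 and 22.7. Dental mesenchyme markers were summed at 29108 and 23435, of which *Col1a1* gave 21211 and 17127, with 1 higher and 2 lower past the threshold among 10. Odontoblast markers were summed at 6039 and 4830, of which *Dspp* gave 5179 and 4136, with 1 of 4 lower past it. All 6 markers of dividing cells were higher, summed at 434 and 533, with 1 past the threshold. Skeletal muscle markers were near nil, summed at 8.30 and 7.25 over 9 genes, with 1 higher and 4 lower past the threshold, while nerve and glia markers were summed at 62.2 and 74.7 with 1 of 6 higher past the threshold. Markers of macrophages (206 and 233) and neutrophils (13.9 and 11.2) held none past 1.5-fold. The part of these cell types in the values of *Ldhb*, *Hk2*, *Car9*, *Hif3a* and the other members was not tested.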

How the data were processed

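RNA of 3 control and 3 mutant samples of proximal incisor mesenchyme was sequenced, and groups were taken from the sample titles. Reads were trimmed, mapped to mm10 and analysed in Partek Flow by the authors, and the submitters' processing notes name TopHat2 2.0.8. Read counting, annotation and normalization are not given in the sources used here. The deposited values are a normalized signal, as a least-squares mean per group and gene, and a summary of this signal per library. The deposited table also holds the authors' own comparison (p-values, FDR, ratio and fold change), which was not used, nor were 5 further columns of the library summary and a list of selected genes. The test planned for values per library did not apply to group means. Ratios were formed from the 2 group means without a pseudocount or filter. Reads per library were inferred by taking the lowest value as 1 added read, and group means of 3 reads or fewer would have been a floor, but all 36 genes lay above it. This inference and the number of libraries limit the precision, which is not known per gene.

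The members and gene lists were chosen with earlier results of these data known. All members are given, with both means for each. Of each other list at most 3 genes with the largest absolute log2 ratio and a mean of at least 10 in 1 group were eligible for naming, besides *Arid1b*, *Ldhb-ps*, *Xist*, *Ddx3y* and markers named to check the tissue, which were chosen after their values were seen. Lengths and positions are from GENCODE vM21, with all exons of a gene merged, and for *Aldoa* the first of its gene models was used. Alternatives were other scalings, filters, folds, a pseudocount, other lengths, fewer members and the first promoter window, the last chosen after seeing the data. The code for ratios and counts was checked on control means with planted changes and no noise, which says nothing on the precision of the ratios. Python 3.11.15, numpy 2.4.6, pandas 2.3.3 and matplotlib 3.10.9 were used.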

Additional observations from a re-analysis of the deposited data

How the results depend on the processing

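The median log2 ratio of the members moved by less than 0.1 under each of its 7 alternatives, and lay between -0.03 and 0.04. It was above 0 only with scaling to the library total, where that of all listed genes was 0.06. The count of members past the fold, 2 in the values reported, was 1 with scaling to the library total (beside 13.4% of all listed genes), 0 of 28 with a mean of at least 10 (3.06%), 0 of 12 with a mean of at least 100 (1.94%), 0 with a pseudocount of 1 (3.41%), and 1 of 31 without *Pfkm*, *Aldoc*, *Eno2*, *Slc2a3* and *Hif3a* (13.2%). It was 6 at the looser limit of 25% (26.5%) and 1 at a fold of 2 (5.17%). With the length of the longest transcript in place of merged exons, the share of *Hk2* differed between mutants and controls by 5.52 points in place of 6.71, and that of *Ldhb* by -6.56 in place of -5.04. With the mean length of coding transcripts these were 3.94 and -7.23, *Pfkp* differed by 2.52 in place of 0.936, *Slc16a3* by -2.00 in place of -0.758, and *Pfkm* turned from 0.646 to -0.046. The cause of the *Pfkm* reversal lies in the lengths alone, since nothing else was altered. The runs without each replicate could not be made from group means. No paired analysis was possible because the group means carry no replicate numbers. Depth limits *Car9*, *Egln3*, *Ankrd37*, *Adm* and *Slc16a3* most.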
